A study of Mus musculus with 6 samples.

Results

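The genes described are 9 whose products fill and enclose the red blood cell: the globins Hba-a1, Hbb-b1 and Hbb-bh1, the membrane genes Slc4a1, Ank1, Aqp1 and Ermap, and the carbonic anhydrases Car1 and Car2. They were chosen by gene symbol, and every probe set of the array whose annotation names at least 1 of them was taken, which gave 19 of 45037 probe sets. RNA came from bone marrow cells of adult female mice, 6 to 16 weeks old, after mature blood lineages had been removed by negative selection, a step that enriches for haematopoietic stem and progenitor cells. Expression was measured on 6 Affymetrix mouse arrays, 3 with B.D(Chr5) samples and 3 with C57B/L6 samples, each sample a biological replicate per the labels. No treatment was given, and the labels call the genetic background of the B.D(Chr5) samples B.D and that of the others C57B/L6. The strain label B.D(Chr5) names chromosome 5; the 9 genes lie on chromosomes 3, 4, 6, 7, 8 and 11. The labels do not say how B.D(Chr5) mice were bred, which lineage antibodies were used, or whether a sample was 1 mouse or a pool. A p-value here therefore speaks to the spread among these 6 samples alone.

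Red cells carry oxygen on haemoglobin, a tetramer of alpha and beta globin chains, and carry carbon dioxide mostly as bicarbonate. Carbonic anhydrases make the bicarbonate inside the cell, and band 3, the product of Slc4a1, exchanges it for chloride across the membrane. Ankyrin, the product of Ank1, ties band 3 to the spectrin skeleton that gives the red cell its shape. In mouse marrow, genes of this programme come on as progenitors commit to the erythroid lineage, and the globins and band 3 reach their highest levels in maturing erythroblasts.

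The labelled cell preparation was described with genes of early erythroid cells and of mature lineages. A comparison of the strains cannot show how fully mature lineages were removed. The erythroid factor gene Gata1 had signals of 2345, 3195 and 2043 in B.D(Chr5), against 2967, 2248 and 2684 in C57B/L6, and Klf1, which encodes an activator of the adult beta globin gene, had 6917, 9239 and 6539 in B.D(Chr5), against 8919.5, 7532 and 6932 in C57B/L6. Of 10 genes of mature lineages, 7 were measured here and 5 were bright enough to test. In limma 0 of the 5 passed the strain test and 0 had an unadjusted p under 0.05, with a median log2 change of 0.24. Over all tested probe sets the shares were 0.182% and 4.75%. The B cell gene Ms4a1 had a log2 change of 0.99 and the myeloid integrin gene Itgam one of 0.37 (limma adjusted p = 1.00 for both). Ms4a1 had 304, 224 and 1113 in B.D(Chr5), against 164, 206 and 261 in C57B/L6, and a log2 change of 0.31 without B.D(Chr5) replicate 3. Background was set on each array from 27 bacterial probe sets with no target in the sample, as the signal that 95% of them did not exceed, which lay between 21.8 and 38.0. MAS5 signal has no unit that is shared between probe sets, so levels are compared between arrays and not between genes.

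A signal of 1 globin probe set can come from several genes, because adult globin genes of the same kind, alpha or beta, are closely alike. The single Hbb-b1 probe set, 1417184_s_at, is annotated to Hbb-bt, Hbb-bs, Hbb-b2 and Hbb-b1, and 3 of the 4 Hba-a1 probe sets are annotated to Hba-a2 as well. RefSeq places Hbb-bt at bases 103812524 to 103813923 and Hbb-bs at 103826523 to 103827928 of chromosome 7. It lists Hbb-b1 at 38285 to 39684 and Hbb-b2 at 53494 to 54867. Whether these are counted along the same sequence is not stated there, so the positions are not compared. The labels do not say which of these beta globin genes each strain carries. Promoters are shown because the gene copies behind a shared probe set differ in how far their regulatory sequence is alike, with Ermap and Aqp1 beside them as members outside the globins. They are the 250 bases before the annotated start of each gene in RefSeq, build GRCm38.p6, written 5′ to 3′ along the gene. RefSeq promoters were matched for 3 of the 9 genes, Hba-a1, Aqp1 and Ermap, and for the beta globin genes Hbb-bs and Hbb-bt, which share the Hbb-b1 probe set. Capitals mark 2 kinds of letters on either strand. The GATA letters, the core bound by GATA factors, are AGATAA, where the first base may also be T and the last G. The CACCC letters, the core bound by KLF factors such as the product of Klf1, are CCACCC or CACACCC.
Hba-a1 promoter, chr11:32283422-32283671, plus strand: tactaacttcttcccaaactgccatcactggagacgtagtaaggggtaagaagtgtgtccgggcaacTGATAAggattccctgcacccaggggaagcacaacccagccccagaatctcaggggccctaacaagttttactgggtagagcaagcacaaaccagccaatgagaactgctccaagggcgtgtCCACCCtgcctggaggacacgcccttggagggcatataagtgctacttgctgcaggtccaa
Hbb-bs promoter, chr7:103827929-103828178, minus strand: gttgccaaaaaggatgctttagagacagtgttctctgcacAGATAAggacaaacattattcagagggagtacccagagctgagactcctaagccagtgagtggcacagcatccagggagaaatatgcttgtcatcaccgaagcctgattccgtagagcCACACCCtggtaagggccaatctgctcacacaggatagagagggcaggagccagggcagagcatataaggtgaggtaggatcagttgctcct
Hbb-bt promoter, chr7:103813924-103814173, minus strand: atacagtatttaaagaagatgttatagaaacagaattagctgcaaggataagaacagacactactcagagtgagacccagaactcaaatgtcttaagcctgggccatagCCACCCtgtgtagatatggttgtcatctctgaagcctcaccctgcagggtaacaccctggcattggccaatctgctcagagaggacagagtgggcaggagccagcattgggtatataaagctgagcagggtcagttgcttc
Ermap promoter, chr4:119189996-119190245, minus strand: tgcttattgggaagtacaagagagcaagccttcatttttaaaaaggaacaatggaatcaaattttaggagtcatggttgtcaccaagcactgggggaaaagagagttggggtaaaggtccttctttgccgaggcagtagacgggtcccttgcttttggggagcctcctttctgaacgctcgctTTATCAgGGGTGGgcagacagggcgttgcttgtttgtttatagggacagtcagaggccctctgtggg
Aqp1 promoter, chr6:55336049-55336298, plus strand: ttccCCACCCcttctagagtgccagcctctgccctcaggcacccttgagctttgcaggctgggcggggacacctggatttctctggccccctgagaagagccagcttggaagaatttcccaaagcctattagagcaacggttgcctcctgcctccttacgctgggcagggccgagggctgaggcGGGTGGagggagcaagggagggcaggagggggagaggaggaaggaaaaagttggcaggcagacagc

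The GATA letters lay 183 bases before the start of Hba-a1, 210 before that of Hbb-bs and 67 before that of Ermap, and were not in the windows of Hbb-bt and Aqp1. The CACCC letters were in all 5 windows, 61 bases before the start in Hba-a1, 92 in Hbb-bs, 141 in Hbb-bt and 60 in Ermap, and at 246 and 66 bases in Aqp1. Of 32851 promoters in the RefSeq table, 26.5% held the GATA letters, 32.7% the CACCC letters and 6.95% both in the same window. A match is a run of letters and not a shown site. The 300-base windows of Hba-a1 and Hba-a2, which also take in 50 bases after the start, shared a run of 297 bases, whereas those of Hbb-bs and Hbb-bt had 219 of 300 bases (73%) identical when aligned.

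Alpha globin was far above background on every array and did not differ between the strains beyond the spread of the arrays. Probe set 1428361_x_at, shared by Hba-a1 and Hba-a2, had signals of 21902, 25683 and 23766 in B.D(Chr5), against 25778, 22973 and 20896 in C57B/L6. The strains overlapped, and the highest array was a C57B/L6 one. On the log2 scale B.D(Chr5) minus C57B/L6 was 0.04 (SE 0.09, limma adjusted p = 1.00), and the 95% interval ran from -0.17 to 0.24. The other bright shared probe set, 1452757_s_at, averaged 20052 ± 1684 in B.D(Chr5) and 20019 ± 2351 in C57B/L6 (SD, n = 3 each). In bulk samples such as these, fewer cells of a type and less RNA per cell cannot be told apart.

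The dimmest shared alpha globin probe set varied more. On 1417714_x_at the signals were 1830.0, 2178 and 3358 in B.D(Chr5), against 2567, 3247 and 1568 in C57B/L6. The highest array was 2.14 times the lowest, against 1.23 times on 1428361_x_at and 1.24 times on 1452757_s_at, which read the same genes. The arrays of B.D(Chr5) replicate 1 and C57B/L6 replicate 3 were the 2 dimmest on each of these 3 probe sets. The probe set annotated to Hba-a1 alone, 1453574_at, was at or below background on all 3 B.D(Chr5) arrays and on 1 of 3 C57B/L6 arrays, with no signal above 39.8, and was too dim to test. That annotated to Hba-a2 alone, 1427219_at, had 118, 96.9 and 109 in B.D(Chr5), against 51.2, 92.8 and 79.8 in C57B/L6. The strains did not overlap on this dim probe set, a separation seen in 9.40% of all tested probe sets, and its log2 change of 0.48 did not pass (limma adjusted p = 1.00). Over the 6 arrays it did not rise with the other red cell genes, with a Pearson's r of -0.33 to Hbb-b1, -0.26 to Slc4a1 and -0.48 to Car1.

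Adult beta globin, read by the probe set annotated to Hbb-b1, Hbb-b2, Hbb-bs and Hbb-bt, had signals of 17387, 22024 and 20139 in B.D(Chr5), against 21897, 18988 and 16218 in C57B/L6. Both strains spanned nearly the same range. The log2 change was 0.06 (SE 0.12; limma adjusted p = 1.00; 95% interval -0.20 to 0.33). Probe set 1427866_x_at, the brighter of 2 tested probe sets annotated to Hbb-b2 alone, was dim. It had 97.9, 88.6 and 133 in B.D(Chr5), against 144, 134 and 75.6 in C57B/L6. Its log2 change was -0.10 (limma adjusted p = 1.00).

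Embryonic globins were at or near background. Hbb-bh1, which encodes a beta-like chain of the primitive red cells of the early embryo, has 3 probe sets, all too dim to test. On the brightest, 1437810_a_at, the signals were 6.79, 48.7 and 31.3 in B.D(Chr5), against 4.03, 29.5 and 23.6 in C57B/L6, and 1 array of each strain was above its own background. The other Hbb-bh1 probe sets stayed at or below background on all 6 arrays, and no fold change is given for them. Hbb-y, another embryonic beta-like gene, was at or below background on all 6 arrays on each of its 3 probe sets, with no signal above 12.0 in B.D(Chr5) or 6.75 in C57B/L6. Hba-x, the embryonic alpha-like gene, was above background on 0 of 3 B.D(Chr5) arrays and 1 of 3 C57B/L6 arrays.

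**Figure D1:**
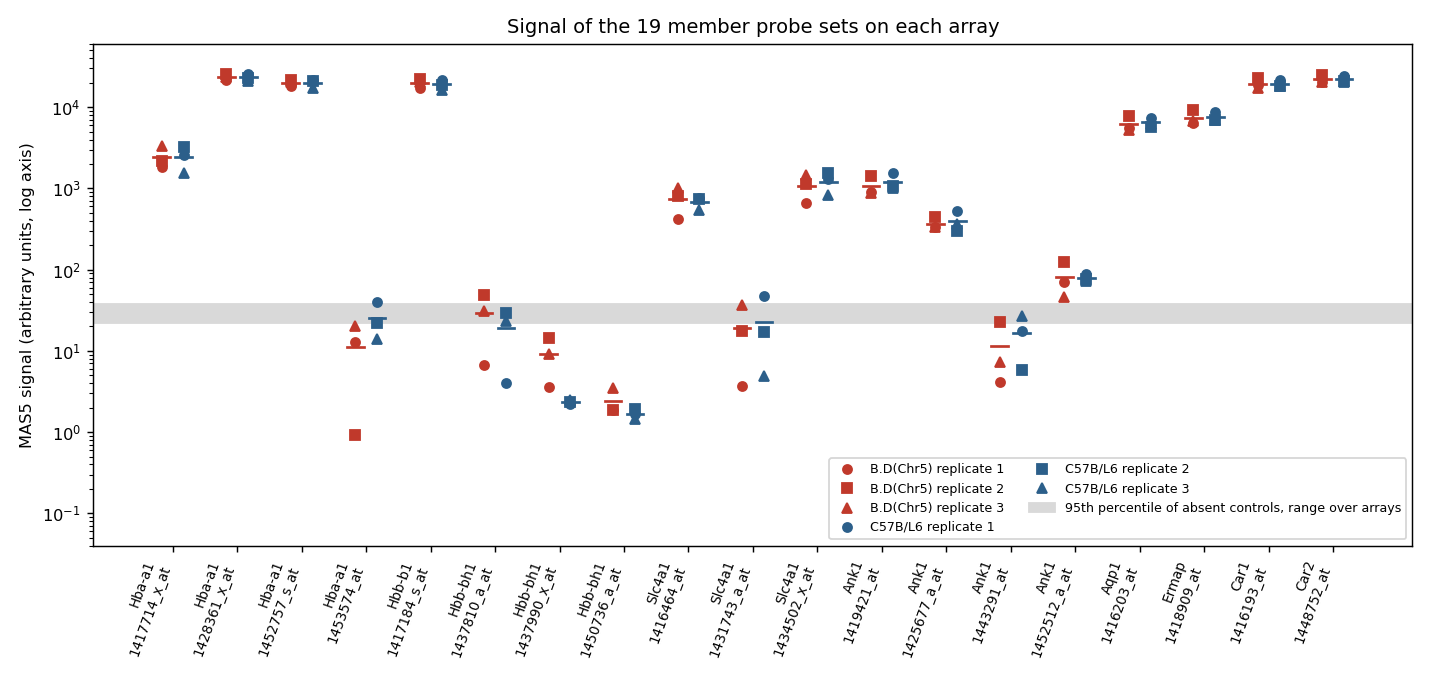
MAS5 signal (log axis) of the 19 probe sets of the 9 genes on each array, B.D(Chr5) in red and C57B/L6 in blue, with a symbol per replicate and a bar at each strain's mean (n = 3). The grey band spans the background level of the 6 arrays, 21.8 to 38.0; the strains overlap on 18 of the 19 probe sets, the exception being a Hbb-bh1 probe set below background.

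By brightest probe set, Slc4a1 had the widest range over the arrays among the 8 tested genes, and the arrays of each strain spread widely. Its brightest probe set, 1434502_x_at, had signals of 653, 1125 and 1476 in B.D(Chr5), against 1294, 1536 and 819.7 in C57B/L6. The array of B.D(Chr5) replicate 1 was the dimmest and that of C57B/L6 replicate 2 the brightest, 2.35 times as high. The log2 change was -0.19 (SE 0.29; limma adjusted p = 1.00), and the 95% interval, -0.85 to 0.47, allows a level in B.D(Chr5) between 0.555 and 1.38 times that in C57B/L6. The second probe set, 1416464_at, had 419, 803 and 1019 in B.D(Chr5), against 761, 746 and 543 in C57B/L6, and a log2 change of 0.05, of the opposite sign. Both probe sets were dimmest on B.D(Chr5) replicate 1 and C57B/L6 replicate 3, and over the 6 arrays they had a Pearson's r of 0.911. The remaining probe set, 1431743_a_at, was above background on 0 of 3 B.D(Chr5) arrays and 1 of 3 C57B/L6 arrays and was not tested.

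Ank1, whose product anchors band 3, was read by 4 probe sets, 3 of them bright enough to test. On the brightest, 1419421_at, the signals were 913, 1434 and 886 in B.D(Chr5), against 1555, 1062 and 999 in C57B/L6. A single array of each strain, B.D(Chr5) replicate 2 and C57B/L6 replicate 1, stood above the other 4. The log2 change was -0.17 (SE 0.21; limma adjusted p = 1.00; 95% interval -0.64 to 0.31). The other tested probe sets, 1425677_a_at and 1452512_a_at, had log2 changes of -0.07 and -0.06 and were brightest on the same 2 arrays. The fourth, 1443291_at, was above background on 1 of 6 arrays.

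Aqp1, the water channel of the red cell membrane, which endothelium also makes, had signals of 5487, 7846 and 5272 in B.D(Chr5), against 7417, 5780.5 and 6292 in C57B/L6. Its log2 change was -0.08 (SE 0.15; limma adjusted p = 1.00; 95% interval -0.42 to 0.25). Ermap, an immunoglobulin-family protein of the erythroblast membrane that carries the Scianna blood group in humans, had 6385, 9141 and 6699.9 in B.D(Chr5), against 8843, 7052 and 7026 in C57B/L6. For both genes the strains overlapped and the highest 2 arrays were again B.D(Chr5) replicate 2 and C57B/L6 replicate 1. Ermap had a log2 change of -0.05 (SE 0.14; limma adjusted p = 1.00; 95% interval -0.37 to 0.26).

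Car1 and Car2 encode cytosolic carbonic anhydrases, and Car2 is also the isozyme with which osteoclasts acidify bone. Car1 had signals of 18505, 22762 and 17383 in B.D(Chr5), against 21848, 18041 and 17993 in C57B/L6. Car2 had 20379.9, 25237 and 20342 in B.D(Chr5), against 24051, 21278 and 20581 in C57B/L6. Their log2 changes were the closest to 0 among the single-gene probe sets tested, 0.02 for Car1 (SE 0.11) and -0.0032 for Car2 (SE 0.10), with a limma adjusted p of 1.00 for both. The 95% intervals were -0.24 to 0.27 for Car1 and -0.22 to 0.22 for Car2, on the scale of the deposited signal.

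Over the members, 13 of the 19 probe sets, from 8 of the 9 genes, lay in the upper 50% of the array by mean signal and were tested between the strains. Of these, 0 passed an adjusted p of 0.05 in limma, and 0 had an unadjusted p under 0.05; over all 22518 tested probe sets the shares were 0.182% and 4.75%. In 6 the log2 change was positive and in 7 negative, where 50.1% of all tested probe sets were positive. The log2 changes ran from -0.19 to 0.06, with a median of -0.0032, and that of all tested probe sets was 0.00025. The 3 arrays of one strain were separate from those of the other on 0 of the 13, against 9.40% of all tested probe sets. Of all tested probe sets, 3.29% had an absolute log2 change over 0.5, a size that the 95% interval includes for all 3 tested Ank1 probe sets, both of Slc4a1 and 1417714_x_at of Hba-a1, and excludes for Aqp1 and Ermap. It lay outside the intervals of Hbb-b1, Car1, Car2 and the other alpha globin probe sets as well, but their signals, 16218 to 25778, were near those of the brightest spike-in probe set, 24063 to 27764, and whether differences are compressed at such signals was not tested.

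**Figure D2:**
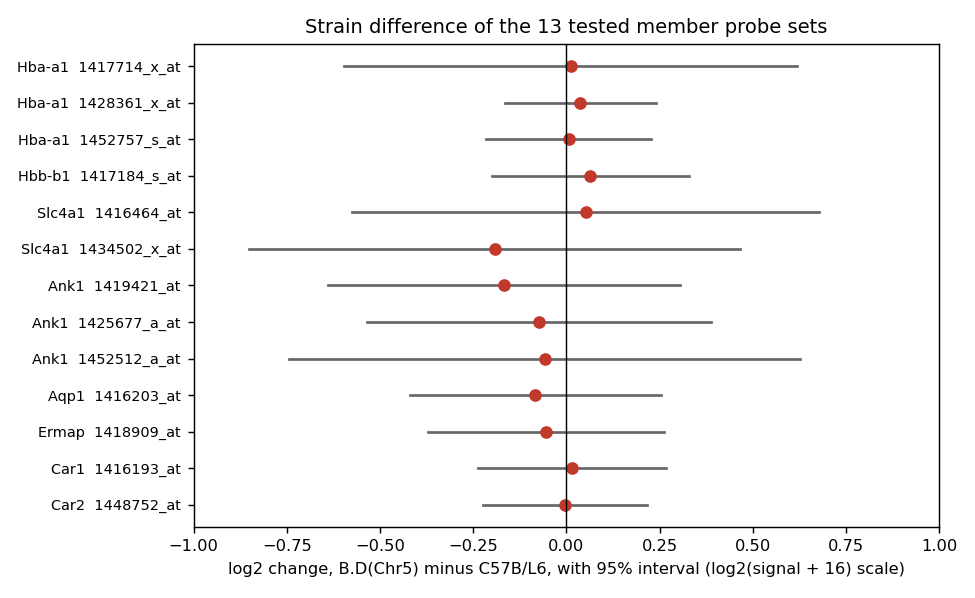
Log2 change, B.D(Chr5) minus C57B/L6, of the 13 tested probe sets, with points at limma's estimate and bars for its 95% interval (3 arrays per strain). All 13 intervals include 0, with estimates between -0.19 and 0.06.

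Other genes of the red cell were described from lists chosen by function, each to be read against the shares over all tested probe sets: 0.182% passed, 4.75% had an unadjusted p under 0.05 and 50.1% were positive. Among 20 further genes of the membrane and its skeleton, 17 were measured here and all 17 were tested. Of these, 0 passed in limma and 0 had an unadjusted p under 0.05; 7 were positive and 10 negative, with a median log2 change of -0.10. The smallest p-values were those of Icam4, an erythroblast adhesion molecule, with 898, 1112 and 764 in B.D(Chr5), against 1151, 1068 and 1034 in C57B/L6, and of Kel, the Kell blood group protein, with a log2 change of -0.18. Of 12 erythroid transcription factor genes, 0 passed in limma and 0 had an unadjusted p under 0.05, and their median was -0.05. Bcl11a, a repressor of embryonic globins, had a log2 change of -0.17 and E2f2, a cell cycle factor of erythroblasts, one of 0.21. Gata1 and Klf1 had -0.07 and -0.05 (limma adjusted p = 1.00 for each of the 6 genes named from these lists).

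All 12 genes of erythroid progenitors were tested. Of these, 0 passed in limma, 1 had an unadjusted p under 0.05, and 11 of 12 were negative, with a median of -0.11; of all tested probe sets 4.75% had such a p and 50.1% were positive. Tfrc, the transferrin receptor through which erythroid cells take up iron, was the positive member, with 7356, 8091 and 7557 in B.D(Chr5), against 7171, 6642 and 6620.3 in C57B/L6. Its 3 B.D(Chr5) arrays lay above the 3 C57B/L6 arrays, with a log2 change of 0.17 (SE 0.07), which did not pass (limma adjusted p = 1.00). Ces2g, a carboxylesterase, had a log2 change of -0.20. Among 10 other genes of globins and their partners, 4 had a probe set annotated to them alone. Hbb-bs and Hbb-bt, which share the Hbb-b1 probe set, had none. Hba-a2 and Hbb-b2 were the 2 tested, of which 0 passed in limma and 0 had an unadjusted p under 0.05, with a median of 0.19. Hba-a2 and Hbb-b2 were each read here by a dim probe set of their own and not by the bright shared ones.

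Of 14 other carbonic anhydrase genes, 6 were bright enough to test, and of these 0 passed in limma, 0 had an unadjusted p under 0.05 and 6 were negative, with a median of -0.16. The 2 with the smallest p-values were Car3, with 618, 722 and 531 in B.D(Chr5), against 743, 781 and 668 in C57B/L6, and Car13, with a log2 change of -0.20 (limma adjusted p = 1.00 for both). Of 12 relatives of Slc4a1, Ank1 and Aqp1, 5 were tested, 0 passed in limma, 1 had an unadjusted p under 0.05 and the median was -0.13. The anion exchanger gene Slc4a2 had 627, 678 and 641 in B.D(Chr5), against 485, 402 and 522 in C57B/L6. The strains did not overlap for Slc4a2, and its log2 change of 0.46 (SE 0.13) did not pass (limma adjusted p = 0.594). Slc4a8, a sodium-driven exchanger gene, had a log2 change of 0.40 (limma adjusted p = 1.00).

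Other cells that could bring in RNA of these genes were read from marker lists. Of 10 osteoclast genes, 4 were tested; 0 passed in limma and 0 had an unadjusted p under 0.05, with a median of -0.10, and the signals of the 4 summed to between 1879 and 2157 in B.D(Chr5) and between 1786 and 2642 in C57B/L6. Nfatc1 had a log2 change of -0.18 and Acp5 one of -0.36 (limma adjusted p = 1.00 for both). Of the 6 osteoclast genes too dim to test, Calcr and Ocstamp were at or below background on all 6 arrays, and Ctsk, Atp6v0d2, Oscar and Dcstamp were above it on some. Of 10 endothelial genes, 7 were tested, 0 passed in limma and 0 had an unadjusted p under 0.05, with a median of -0.0016 and sums of 2519 to 2698 in B.D(Chr5) and 2494 to 3029 in C57B/L6; Egfl7 and Plvap had log2 changes of -0.22 and -0.26 (limma adjusted p = 1.00 for both). Of 10 megakaryocyte genes, 9 were tested, 0 passed in limma, 1 had an unadjusted p under 0.05 and 9 were negative, with a median of -0.14 and sums of 7212 to 10094 in B.D(Chr5) and 9264 to 10179 in C57B/L6; Plek and Gp9 had -0.24 and -0.39 (limma adjusted p = 1.00 for both). Of 8 genes of mast cells and basophils, 6 were tested, 0 passed in limma, 4 had an unadjusted p under 0.05 and 5 were positive, with a median of 0.60 and sums of 5232 to 11714 in B.D(Chr5) and 5373 to 5917 in C57B/L6; Fcer1a had 1.38 (limma adjusted p = 0.412) and Hdc 0.60 (limma adjusted p = 0.954). Of all tested probe sets, 4.75% had such a p and 50.1% were positive. B.D(Chr5) replicate 2 was unlike the other B.D(Chr5) arrays here: Mcpt8, a basophil protease gene, had 4849.5, 1113 and 3619.6 in B.D(Chr5), against 1266, 1268 and 1378 in C57B/L6. Its log2 change was 1.04 (limma adjusted p = 1.00). Among refits with an array left out, Mcpt8 passed only when that unlike array was dropped (1.67, limma adjusted p = 0.00108). The small p-value thus depends on removing the array that differed from its strain. Dropping replicate 1 or 3 of the same strain lowered the change to 0.62 or 0.83. Dropping any C57B/L6 array gave 1.02 to 1.08. Each sum adds signals that share no unit and is set mostly by its brightest genes, so it is no amount of a cell type. The part of these cells in the members' signals was not tested.

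The members varied over the arrays in 2 patterns, described after the values were seen and with no test of the grouping. Ank1, Aqp1, Ermap, Car1 and Car2 were each highest on B.D(Chr5) replicate 2 and C57B/L6 replicate 1. Both tested Slc4a1 probe sets were lowest on B.D(Chr5) replicate 1 and C57B/L6 replicate 3; 1434502_x_at was highest on B.D(Chr5) replicate 3 and C57B/L6 replicate 2, and 1416464_at on B.D(Chr5) replicates 2 and 3. The bright globin probe sets shared the high arrays of the first set and the low arrays of Slc4a1. In all, 10 of the 13 tested probe sets (76.9%) were brightest on B.D(Chr5) replicate 2 and C57B/L6 replicate 1, as were 22 of the 41 further erythroid genes tested (53.7%) and 12.4% of all tested probe sets. On B.D(Chr5) replicate 1 and C57B/L6 replicate 3, 6 of the 13 were dimmest (46.2%), 9 of the 41 (22.0%) and 4.28% of all. Each of these pairs of arrays, also picked from the values, holds 1 array of each strain.

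**Figure D3:**
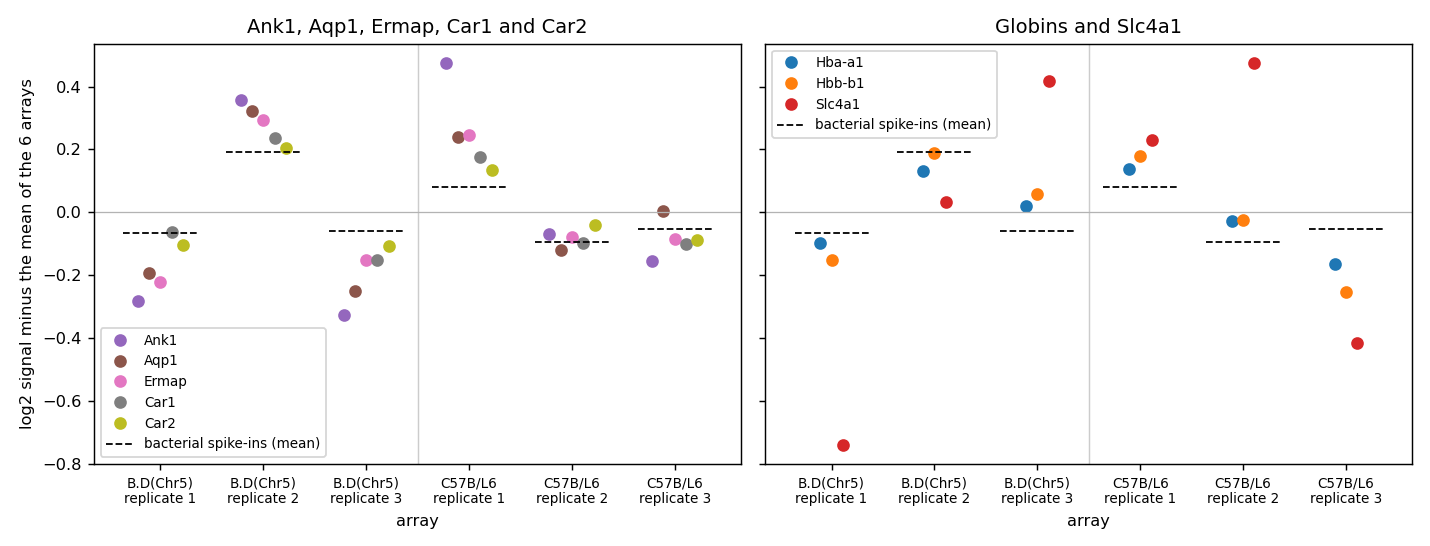
Log2 signal of each of the 8 tested members on each array as the difference from its mean over the 6 arrays (brightest probe set, log2(signal + 16) scale), with B.D(Chr5) arrays left of C57B/L6 arrays. Dashed bars give the mean of the spike-in probe sets in the same way. Slc4a1 spans -0.74 to 0.48, whereas Car2 spans -0.11 to 0.20.

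Among the 36 pairs of the 9 genes, with the brightest probe set of each, 11 had a Pearson's r of at least 0.9 over the 6 arrays. They were Hba-a1 with Hbb-b1, and the 10 pairs within Ank1, Aqp1, Ermap, Car1 and Car2. For comparison, the share of all tested probe sets with an r of at least 0.9 was 0.542% for Hbb-b1, 0.444% for Slc4a1 and 3.21% for Car1. Hba-a1 and Hbb-b1, whose products pair in haemoglobin and whose genes lie on chromosomes 11 and 7, had an r of 0.994 and a Spearman's rho of 0.943 (exact two-sided permutation p = 0.00278 for r and 0.0167 for rho). Adjusted over the 36 pairs these were 0.05, at the threshold and not under it, and 0.15. Leaving out the 2 arrays farthest from the median of Hba-a1, C57B/L6 replicates 1 and 3, r was 0.992. With the mean over the tested probe sets of each gene instead of the brightest, it was 0.780 (rho = 0.486; exact permutation p = 0.0819 for r; adjusted 0.235), and that of Hba-a1 with Slc4a1 was 0.904 (adjusted p = 0.085).

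Within Ank1, Aqp1, Ermap, Car1 and Car2, r lay between 0.935 and 0.981. The highest was that of Ermap with Car2 (rho = 0.943; exact permutation p = 0.00278 for r and 0.0167 for rho; adjusted 0.05 and 0.15). Of the 36 pairs, 0 had an adjusted p under 0.05 by either coefficient, while 11 had an unadjusted exact permutation p under 0.05 by r and 7 by rho. With each array centred on its median instead, 13 of the 36 pairs had an adjusted p under 0.05 by r. The deviations from each strain's mean gave r between 0.943 and 0.988 for the 10 pairs. For all 10 pairs the 2 arrays farthest from the median of the first gene were B.D(Chr5) replicate 2 and C57B/L6 replicate 1. Over the other 4 arrays r ran from -0.32 to 0.91, with a median of 0.52. Dropping the most extreme arrays narrows the range and can by itself lower r, so these values cannot show how far the relation rests on them. The 2 dropped arrays also had the highest signals of the spike-in transcripts. Their mean was 3227 on B.D(Chr5) replicate 2, 2986 on C57B/L6 replicate 1 and 2642 to 2719.8 on the other 4. The 18S ribosomal RNA control was also highest on these 2 arrays, with 1726, 20010.3 and 12554 in B.D(Chr5), against 13058, 2454 and 6306 in C57B/L6. The part of either in the relation was not tested. With every array scaled to the spike-ins, the 10 pairs had r between 0.62 and 0.96, and 1 of 10 kept an r of at least 0.9.

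**Figure D4:**
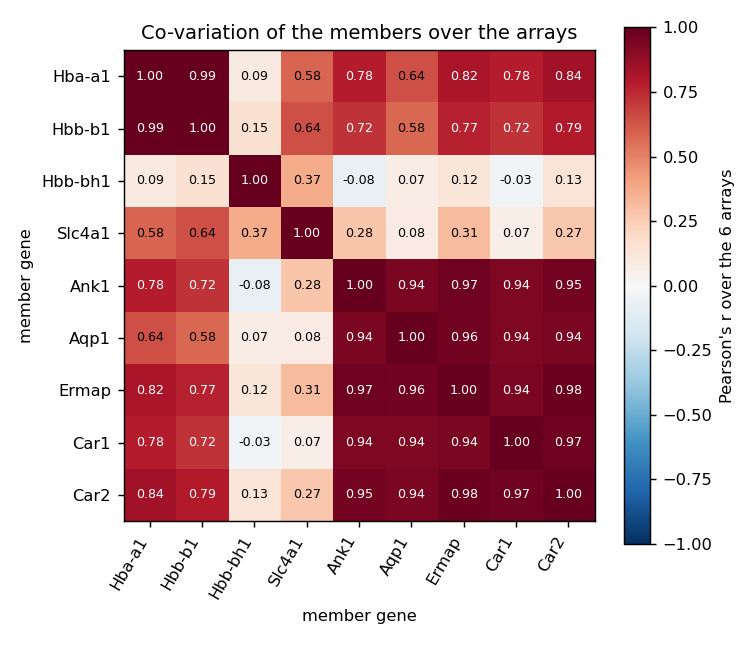
Pearson's r over the 6 arrays between the log2 signals of each pair of the 9 genes (brightest probe set). The block of Ank1, Aqp1, Ermap, Car1 and Car2 lies between 0.94 and 0.98, Hba-a1 and Hbb-b1 are at 0.99, Slc4a1 reaches at most 0.64, and Hbb-bh1 was at background on 4 of 6 arrays.

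Slc4a1 stood apart from the genes of the first set. Its r was 0.067 with Car1 (exact permutation p = 0.912), 0.080 with Aqp1, 0.27 with Car2, 0.28 with Ank1 and 0.31 with Ermap, and it was 0.58 with Hba-a1 and 0.64 with Hbb-b1 (exact permutation p = 0.236 and 0.176; adjusted 0.376 and 0.314). Without B.D(Chr5) replicate 1 and C57B/L6 replicate 3, the arrays farthest from its median, r with Car1 was -0.93. That value rests on few arrays, left after a choice made by the Slc4a1 values, and got no test. No inverse relation is read from it. The deviations from each strain's mean gave an r of 0.080 with Car1. The 3 shared alpha globin probe sets differed in this respect, which was noticed after the values were seen: 1417714_x_at had an r of 0.91 to Slc4a1 and -0.13 to Car1, 1452757_s_at had 0.84 and 0.51, and 1428361_x_at had 0.58 and 0.78. The likeness of alpha globin to the other members depended on the probe set, and the probe set with the widest range over the arrays was the one nearest to Slc4a1.

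Among the 41 further erythroid genes tested, 5 had an r of at least 0.9 to Car1, namely Tspo2, Cd47, Lmo2, Gfi1b and Klf1, where 3.21% of all tested probe sets had one, and 1 had one to Slc4a1, where 0.444% had one, namely Dmtn, which encodes the actin-bundling membrane skeleton protein dematin. Gfi1b, an erythro-megakaryocytic repressor gene, had an r of 0.99 to Car1 and -0.027 to Slc4a1. Dmtn had signals of 99.0, 181 and 201 in B.D(Chr5), against 190.3, 250.03 and 112 in C57B/L6, with an r of 0.98 to Slc4a1 and 0.15 to Car1. Sptb, encoding the beta spectrin of red cells, and Cd36 had an r of at least 0.9 to Hbb-b1.

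**Figure D5:**
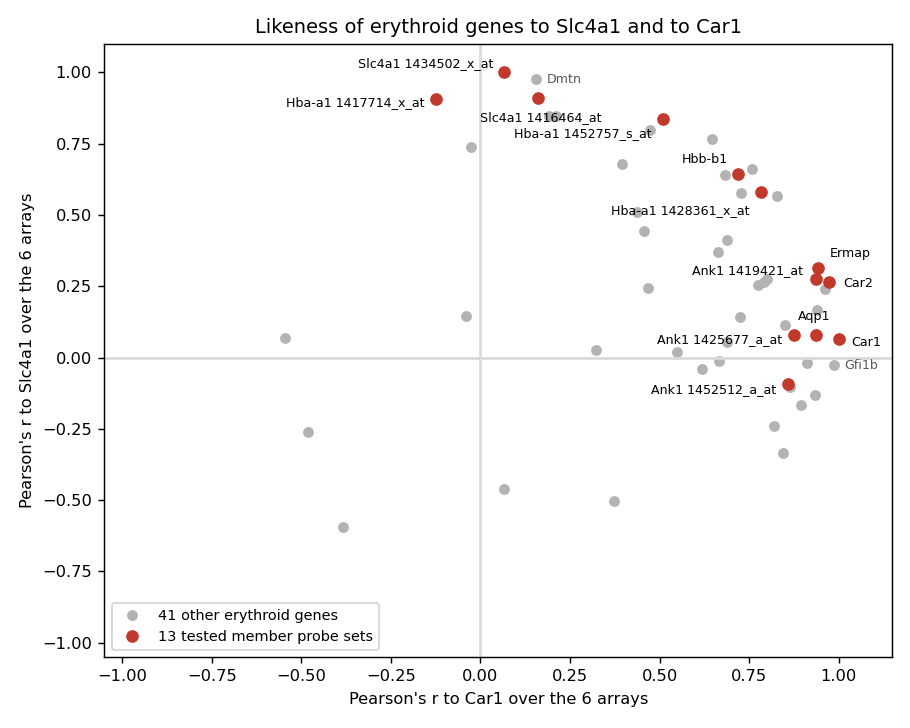
Pearson's r to Car1 (horizontal) and to Slc4a1 (vertical) over the 6 arrays, for the 13 tested member probe sets (red) and 41 further erythroid genes (grey). Slc4a1 and Hba-a1 1417714_x_at lie at the top centre, with r to Car1 from -0.13 to 0.16. Ank1, Aqp1, Ermap, Car1 and Car2 lie at the right, and the bright globin probe sets between them.

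Over the whole array, the genes most like a member were taken from 8354 tested probe sets with 1 gene symbol and a log2 range of at least 0.5. For Hbb-b1 they were Cep83os, Sptb, Acsl6 and Trak2, with r from 0.971 to 0.976 over the 6 arrays. Sptb had 184, 290.0 and 237 in B.D(Chr5), against 250.3, 221 and 159 in C57B/L6. For Slc4a1 they were Hspbap1, Otud5, Ypel4 and Kat2b, with r from 0.987 to 0.996, and Ypel4 had 35.5, 63.6 and 87.4 in B.D(Chr5), against 83.7, 102 and 49.8 in C57B/L6. For Car1 they were Xpr1, Phb2, Dcaf7 and Prim1, with r from 0.982 to 0.993. Probe sets ending in _x_at read Slc4a1 itself, Hspbap1, Otud5 and Phb2. The highest signals of Otud5, Ypel4 and Kat2b were 104.25, 102 and 95.7. The likeness of these 12 genes is a description over 6 arrays that share scaling and processing, and 0 of the 12 passed the strain test (limma adjusted p = 1.00 for each).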

How the data were processed

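RNA was measured on 6 one-colour arrays, 3 per strain. The deposited files hold 1 linear intensity per probe set, and the submitters' processing notes name MAS5, with version and settings not stated there. Each array averaged 500 after trimming 2% at each end, and 0 pairs of arrays were identical. Of 45101 probe sets, 64 controls were left out. Symbols come from the platform annotation, updated by Entrez identifier to RefSeq (GRCm38.p6). Values became log2(signal + 16), so changes of dim probe sets are understated, and the upper 50% of probe sets by mean went into limma 3.58.1 under R 4.3.3 (lmFit, then eBayes with a trend), with a single term for strain. P-values were two-sided and adjusted by Benjamini-Hochberg over all of them. A list gene counted as measured if a probe set was annotated to it alone, and was read by the brightest tested one of these. Correlations used the brightest probe set of a member, with exact p over the 720 orders of the arrays. The fit was tested on simulated data; 2 earlier versions of that test recovered fewer changed probe sets than required, after which both the simulated noise and the requirement were changed, so it is weak support. The number of arrays limits the precision. The members and lists were chosen with earlier results of these data known. Named genes were all members, the 2 of smallest p in each list (0 list genes passed), Gata1, Klf1 and Hbb-y, and the 4 most like each of Hbb-b1, Slc4a1 and Car1. Dmtn, Gfi1b, Mcpt8, Hba-x, the dim osteoclast genes and the genes listed with an r of at least 0.9 fall outside that rule and were named after their values were seen. Alternatives were pseudocounts of 1 and 64, filters, scalings, no trend, replicate number as block, dropping _x_at probe sets, gene means and leaving out each array. Scaling to the 9 spike-in probe sets was added after the data were seen.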

Additional observations from a re-analysis of the deposited data

How the results depend on the processing

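The count of 0 member probe sets and of 0 erythroid list genes passing the strain test held under every alternative run, including each array left out. Over 136 refits of the 8 tested members, 0 passed (lowest limma adjusted p = 0.690) and 21 changed sign, 17 of them with an array left out. The others were Hba-a1 at -0.0073 and Car1 at -0.029 when scaled to the spike-ins, Car1 at -0.0028 after quantile normalization, and Slc4a1 at 0.052 without probe sets ending in _x_at. With an array left out, log2 changes ran from -0.036 to 0.12 for Hba-a1, -0.046 to 0.17 for Hbb-b1, -0.45 to 0.13 for Slc4a1, -0.39 to 0.029 for Ank1, -0.26 to 0.022 for Aqp1, -0.22 to 0.055 for Ermap, -0.099 to 0.11 for Car1 and -0.11 to 0.064 for Car2. Of the 36 pairs, 0 passed in 7 settings and 13 did with each array centred on its median; the cause was not tested. Adjusted values of exactly 0.05 were counted as not passing, a rule set after the counts were seen; it covers 2 pairs as deposited and 4 after quantile normalization. The deviations from strain means got no test. The deviations of same-numbered arrays had r of -0.11, -0.20 and 0.20 over tested probe sets, and with the replicate number as a block 0 member probe sets passed. Across numbers, r was 0.30 for B.D(Chr5) replicate 2 with C57B/L6 replicate 1 and 0.26 for B.D(Chr5) replicate 1 with C57B/L6 replicate 2. The remaining pairs had r from -0.16 to -0.036. A pairing of the arrays under other numbers was not tested. Over the whole array 41 probe sets passed, 67 with median centring, 25 without trend, 27 with the block and 21 to 73 with an array left out (21 without B.D(Chr5) replicate 1, 73 without B.D(Chr5) replicate 2, 24 without C57B/L6 replicate 2 and 22 without C57B/L6 replicate 3). Signals near background limit what can be said of Hbb-bh1 and of 3 dim probe sets of Hba-a1, Slc4a1 and Ank1.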
